A study of Mus musculus with 11 samples.

Results

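H3K4me2, dimethylation of lysine 4 of histone H3, marks the nucleosomes of active promoters and enhancers. CDX2 is a homeodomain protein that regulates transcription in intestinal cells, and HNF4A is a nuclear receptor that acts in enterocytes, the absorptive cells that cover the villus. At an active enhancer, nucleosomes on either side of the bound factor carry the mark, so a map of single marked nucleosomes shows where such elements lie. In mouse genetics, both factors are known as regulators of genes of the absorptive epithelium.

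The regions described here are 202 stretches of 5 kb that held H3K4me2 nucleosomes in 4 libraries and none in the remaining one, a double knockout titled Cdx2-Hnf4a. They were chosen by the nucleosome counts themselves. The mm9 genome was divided into 5 kb windows from position 1 of each chromosome, and called nucleosomes with a score of 52 or more were counted by their centres. The score is 10 times the −log10 of the p-value of each nucleosome, as deposited. A window was taken where the titled Cdx2-Cdx1 double knockout, the Cdx2 knockout, the Hnf4a knockout and wild type each had 3 or more nucleosomes and the titled Cdx2-Hnf4a library had 0. In all, 25145 windows had 3 or more in those 4 libraries, and 90972 windows had a nucleosome in at least 1 of the 5. The 24943 windows that were also marked in the titled Cdx2-Hnf4a library serve as the comparison and are called retained windows.

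All H3K4me2 libraries came from villus epithelium of the mouse jejunum on a mixed 129xC57BL6 background, with 1 library in each group and pooled ChIP DNA behind each library. The labels name neither the age of the mice nor the Cre driver or allele behind a knockout. They give a different antibody lot for the titled Cdx2-Hnf4a library than for the other 4. With 1 library in each group, the part of the lot in the results cannot be told apart from that of genotype. The labels of both double knockouts contradict each other: the description of the library titled Cdx2-Hnf4a names Cdx1 as the other deleted gene, and the source and description of the library titled Cdx2-Cdx1 name Hnf4a. Cdx2 is deleted in both under every label. The libraries are therefore named by title, and what else each of them lacks cannot be told from the labels. Binding was taken from CDX2 ChIP in Hnf4a knockout (1 library) and wild type (2 libraries), and from HNF4A ChIP in Cdx2 knockout and wild type (1 library each), in villi of the same tissue and background. Windows are given by position only, and the villus identity of the libraries was not checked against marker genes, because no gene annotation of build mm9 was used here.

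The lists differed in length. Above that threshold the titled Cdx2-Hnf4a list held 275915 nucleosomes, with a median score of 238.9. The titled Cdx2-Cdx1 list held 281957 (199.1), the Cdx2 knockout list 256794 (249.7), the Hnf4a knockout list 250282 (206.8) and the wild-type list 245431 (241.6). The depth of the libraries is unknown, since the lists hold no reads. A window called empty held no nucleosome scoring 52 or more, which is not the same as no mark. Each H3K4me2 group had 1 library, so no difference between groups has a replicate check, and intervals (95%) cover counting error only. They also treat windows and nucleosomes as independent, although neighbours are not.

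At a score of 52 or more, empty windows were more numerous in the titled Cdx2-Hnf4a library than in the other 4. With the lists as deposited, where the Hnf4a knockout list reaches lower scores than the rest, the order turned: 235 windows were empty only in the titled Cdx2-Hnf4a library and 281 only in wild type. At a score of 52 or more, 202 of the 25145 windows marked in the other 4 lists were empty in the titled Cdx2-Hnf4a library. That was 0.803% (0.697 to 0.922, exact Clopper-Pearson interval). At the same score with the roles exchanged, 13 windows were empty only in the titled Cdx2-Cdx1 library, or 0.0537% of 24210. The Cdx2 knockout had 10, or 0.0412% of 24259. The Hnf4a knockout had 41, or 0.165% of 24920, and wild type had 42, or 0.169% of 24802. These percentages belong to the rule that chose the windows and are descriptions.

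**Figure D1:**
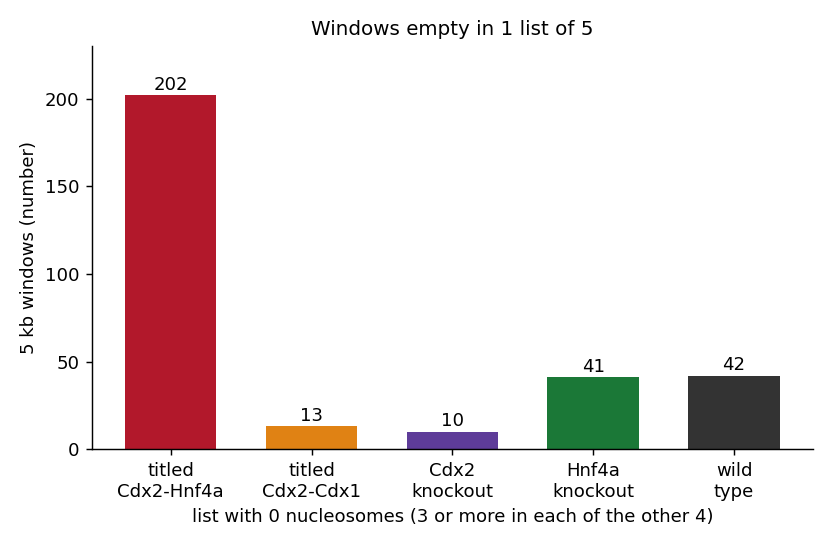
Number of 5 kb windows (vertical axis) with 0 H3K4me2 nucleosomes scoring 52 or more in the library named on the horizontal axis and 3 or more in each of the other 4. The titled Cdx2-Hnf4a library stands at 202, and the other 4 stand between 10 and 42.

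The densest of these windows lay on chromosome 7 at 86980001 to 86985000. It held 0 nucleosomes in the titled Cdx2-Hnf4a library, 16 in the titled Cdx2-Cdx1 library, 19 in Cdx2 knockout, 20 in Hnf4a knockout and 20 in wild type. HNF4A peaks overlapping it scored up to 98.3 in Cdx2 knockout and 349.9 in wild type. Peak scores given for a window are the highest of a peak overlapping it, taken in each list separately. They need not belong to the same site. This window is also 1 of 11 in which the titled Cdx2-Hnf4a list had a nucleosome scoring just under 52, and so was empty only by that threshold. The window directly before it, at 86975001 to 86980000, was also empty in the titled Cdx2-Hnf4a library and had 9, 12, 16 and 15 nucleosomes in the other 4, in the same order. Together they formed 1 of 7 pairs of adjoining windows, and no run was longer than 2. In both windows of this pair the titled Cdx2-Cdx1 library had the lowest count of the 4 marked libraries.

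Several other dense windows differed more between the 4 marked libraries than the densest one did. The window on chromosome 14 at 121895001 to 121900000 had 11 nucleosomes in the titled Cdx2-Cdx1 library, 11 in Cdx2 knockout, 18 in Hnf4a knockout and 18 in wild type. On chromosome 2 at 29660001 to 29665000 the counts were 8, 16, 16 and 17 in that order, and a CDX2 peak (169.4, library 1) and an HNF4A peak (101.3) of wild type lay there. The window on chromosome 11 at 78230001 to 78235000 had 16, 10, 14 and 16. Both windows on chromosome 19 had 20 nucleosomes in wild type. The one at 32130001 to 32135000 had 9 in the titled Cdx2-Cdx1 library, 11 in Cdx2 knockout and 15 in Hnf4a knockout, and the one at 34700001 to 34705000 had 10, 7 and 16. In both, the Hnf4a knockout count stood nearer to wild type than the counts of the libraries without Cdx2.

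The remaining windows among the 10 densest were on chromosome 17 at 56420001 to 56425000 and at 44275001 to 44280000, and on chromosome 3 at 3635001 to 3640000. They had 11, 12, 14 and 14 nucleosomes, 8, 6, 17 and 15, and 11, 8, 14 and 16, each time in the titled Cdx2-Cdx1 library, Cdx2 knockout, Hnf4a knockout and wild type. Both on chromosome 17 held no CDX2 or HNF4A peak of wild type. Of the 10 densest windows, the Cdx2 knockout count was below that of wild type in all. The other pairs of adjoining windows began at 144590001 on chromosome 3, 137635001 on chromosome 5, 24545001 and 75025001 on chromosome 10, 60960001 on chromosome 18 and 32130001 on chromosome 19.

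At the edge of the rule, counts were low. In 115 of the 202 windows, or 56.9%, at least 1 of the 4 marked lists had exactly 3 nucleosomes. Each of the 4 lists had 4 or more in 43.1% of the 202 windows, against 75.5% of retained windows. Each had 5 or more in 50 windows, or 24.8%, against 57.0% of retained windows. The smallest total, 12 nucleosomes over the 4 lists, was found in 6 windows. Among these were the ones starting at 86155001 on chromosome 11, at 53975001 on chromosome 7 and at 49565001 on chromosome 4, with 3 in each list. Just outside, 363 windows were marked in the 4 lists and had 1 nucleosome in the titled Cdx2-Hnf4a library. The densest of them, on chromosome 13 at 74260001 to 74265000, had 1 nucleosome there against 20, 20, 19 and 20 in the titled Cdx2-Cdx1 library, Cdx2 knockout, Hnf4a knockout and wild type. The next began at 21540001 on chromosome 19 (1 against 11, 17, 19 and 16) and at 77400001 on chromosome 8 (1 against 13, 4, 20 and 20). A further 424 windows were empty in the titled Cdx2-Hnf4a library but had only 2 nucleosomes in at least 1 of the other lists.

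Fewer nucleosomes were already called in these windows in the other libraries without Cdx2. The mean per window was 5.11 ± 2.48 in the titled Cdx2-Cdx1 library, 5.07 ± 2.75 in Cdx2 knockout, 6.87 ± 3.48 in Hnf4a knockout and 6.65 ± 3.80 in wild type (SD over the 202 windows). In retained windows the 4 means were 7.39, 7.24, 7.01 and 7.01. Scaled by list length, the ratio to wild type in the 202 windows was 0.668 (0.616 to 0.725) in the titled Cdx2-Cdx1 library, 0.729 (0.671 to 0.791) in Cdx2 knockout and 1.01 (0.939 to 1.09) in Hnf4a knockout. The ratios in retained windows were 0.917 (0.911 to 0.923), 0.987 (0.980 to 0.993) and 0.980 (0.973 to 0.986). The rule asked for 3 or more nucleosomes in all 4 lists alike, but it used these same lists, so the ratios are descriptions and carry no test.

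**Figure D2:**
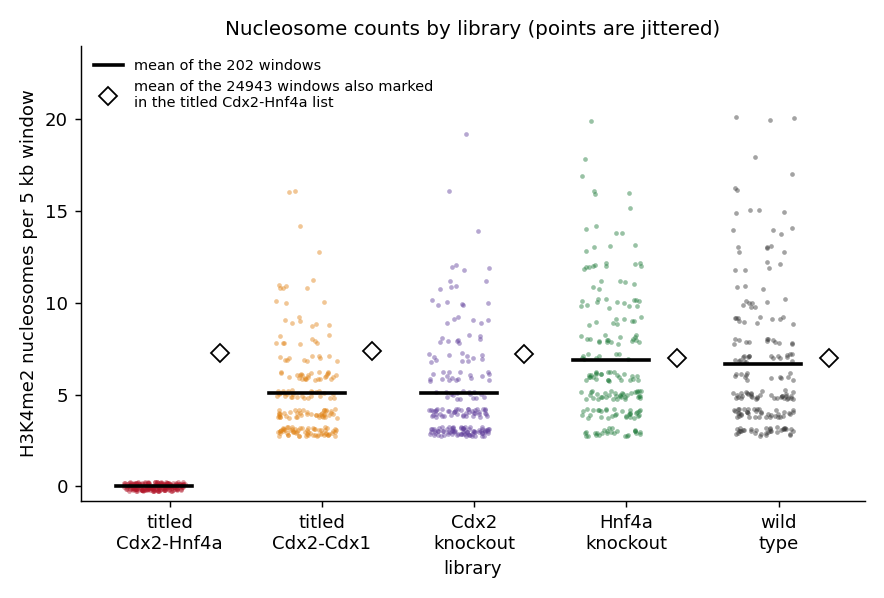
H3K4me2 nucleosomes per 5 kb window (vertical axis) in each library (horizontal axis): points are the 202 windows, jittered, black lines their means and diamonds the means of the 24943 retained windows. In the 202 windows the means are 5.11 in the titled Cdx2-Cdx1 library and 5.07 in Cdx2 knockout, below 6.87 in Hnf4a knockout and 6.65 in wild type.

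The lower level was seen window by window. Cdx2 knockout had fewer nucleosomes than wild type in 125 of the 202 windows, the same number in 54 and more in 23. The titled Cdx2-Cdx1 library had fewer in 122, the same in 36 and more in 44. Hnf4a knockout had fewer in 68, the same in 43 and more in 91. Fewer nucleosomes than in wild type were thus counted in 61.9%, 60.4% and 33.7% of the 202 windows in these 3 libraries, against 29.7%, 30.8% and 34.6% of retained windows, so the Hnf4a knockout share was near that of retained windows. Both libraries without Cdx2 had fewer than wild type in 99 windows, or 49.0%, against 17.1% of retained windows. Between the 2 libraries there was little order: the titled Cdx2-Cdx1 library had fewer nucleosomes than Cdx2 knockout in 66 windows and more in 75. These shares, 32.7% and 37.1%, were near the 33.5% and 39.1% of retained windows. The counts compared window by window were not scaled by list length.

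Large differences followed the same division. Cdx2 knockout had at most 0.5 times the wild-type count in 29 of the 202 windows, or 14.4% (9.83 to 20.0), where the share over all 25145 windows was 1.53%. The titled Cdx2-Cdx1 library did so in 34, or 16.8% (11.95 to 22.7), with 1.71% over all. Hnf4a knockout did so in 4, or 1.98% (0.542 to 4.99), with 0.923% over all.

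Scores in these windows were lower in both marked libraries without Cdx2 as well. The median nucleosome score in the 202 windows was 107.7 in the titled Cdx2-Cdx1 library, 120.4 in Cdx2 knockout, 143.6 in Hnf4a knockout and 167.9 in wild type. In retained windows the medians were 292.2, 356.0, 279.0 and 335.1, each above that of the 202 windows in the same library. The summed score of a window, relative to wild type, had a median of 0.477 in the titled Cdx2-Cdx1 library, 0.522 in Cdx2 knockout and 0.949 in Hnf4a knockout. The same medians in retained windows were 0.977, 1.10 and 0.868. The sum was below that of wild type in 84.2%, 87.1% and 54.9% of the 202 windows, against 52.5%, 35.5% and 70.7% of retained windows, in the same order of libraries. For Hnf4a knockout the share was thus lower than in retained windows. Scores move with depth and were not scaled here.

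Nucleosome positions were followed one by one. Of the 1344 wild-type nucleosomes in the 202 windows, 57.4% (54.7 to 60.0) had a nucleosome centred within 75 bp in the titled Cdx2-Cdx1 library. The share was 61.5% (58.8 to 64.1) in Cdx2 knockout and 75.2% (72.8 to 77.5) in Hnf4a knockout. In retained windows it was 80.1%, 84.5% and 81.6%. Where a nucleosome was called again, its score relative to wild type had a median of 0.560 in the titled Cdx2-Cdx1 library, 0.631 in Cdx2 knockout and 0.927 in Hnf4a knockout. In retained windows these medians were 0.992, 1.11 and 0.888, so that of Hnf4a knockout was lower there.

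Binding of CDX2 and HNF4A was not used to choose the windows. HNF4A peaks of wild type lay in 120 of the 202 windows, or 59.4% (52.3 to 66.2), and in 8513 retained windows, or 34.1% (33.5 to 34.7). The difference was 25.3 points (18.4 to 31.8, Newcombe interval). Over all 25145 windows the share was 34.3%. HNF4A peaks also scored higher here, with a median of 136.4 per window against 112.8 in retained windows. The share was higher at each of 3 levels of marking. Among windows with a mean of 3 to under 5 nucleosomes over the 4 lists it was 53.7% (43.2 to 64.0) of 95, against 24.9% of retained windows of that level. From 5 to under 8 it was 60.3% (47.7 to 72.0) of 68 against 32.2%, and from 8 upwards it was 71.8% (55.1 to 85.0) of 39 against 44.9%.

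CDX2 peaks of either wild-type library lay in 72 of the 202 windows, or 35.6% (29.0 to 42.7), against 17.9% (17.4 to 18.4) of retained windows and 18% of all 25145. This difference of 17.8 points (11.5 to 24.6) rested on 1 of the CDX2 libraries. Library 1, with 12121 peaks of a median width of 570 bp, had a peak in 71 windows, or 35.1%, against 16.1% of retained windows. Library 2, with 7441 peaks of 255 bp, had one in 10, or 4.95% (2.40 to 8.92), against 4.57%. Peaks of both libraries lay in 9 windows, or 4.46% (2.06 to 8.29), against 2.83%. In library 2 the difference was thus 0.376 points (−1.88 to 4.31), an interval that includes 0, and a higher CDX2 share was not detectable there.

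Both factors together occupied 52 windows, or 25.7% (19.9 to 32.3), against 10.8% of retained windows. CDX2 here is a peak of either library, and library 1 had one in 71 of the 72 CDX2 windows. These classes were not split by library. HNF4A without CDX2 lay in 68, or 33.7% against 23.3%, a difference of 10.3 points (4.14 to 17.1). CDX2 without HNF4A lay in 20, or 9.90% against 7.09%, and that difference of 2.81 points (−0.603 to 7.72) includes 0. Neither factor lay in 62, or 30.7% (24.4 to 37.5) against 58.8%. Read from the side of binding, 1.90% (1.42 to 2.48) of the 2743 windows with both factors were empty in the titled Cdx2-Hnf4a library. The share was 1.12% (0.685 to 1.72) of 1788 with CDX2 without HNF4A, 1.15% (0.898 to 1.46) of 5890 with HNF4A without CDX2, and 0.421% (0.323 to 0.540) of 14724 with neither. Over all 25145 windows it was 0.803%, which lies within the interval for CDX2 without HNF4A.

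The 62 windows with neither factor, meaning no wild-type peak overlapping the window, had the lower level in libraries without Cdx2 as well. Their scaled ratio to wild type was 0.694 (0.596 to 0.807) in the titled Cdx2-Cdx1 library, 0.735 (0.630 to 0.856) in Cdx2 knockout and 1.00 (0.868 to 1.15) in Hnf4a knockout. The 52 windows with both factors had 0.633 (0.538 to 0.744), 0.674 (0.571 to 0.793) and 1.05 (0.911 to 1.22). Like the ratios over all 202 windows, these come from lists the rule used and are descriptions. A peak just outside a window does not count in these classes. With peaks within 5 kb included, 80.7% of the 202 windows had HNF4A and 56.9% had CDX2, against 49.1% and 30.2% of retained windows.

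HNF4A was most frequent where the titled Cdx2-Hnf4a library had 2 nucleosomes or fewer. It was 59.4% of the 202 windows with 0, 62.3% (57.1 to 67.3) of the 363 with 1 and 51.3% (48.02 to 54.6) of the 912 with 2. It was 32.99% (31.8 to 34.2) of the 5583 windows with 3 to 4 nucleosomes and 29.2% of the 8363 with 5 to 7, and was 36.4% of the 9722 with 8 or more. CDX2 of either library followed with 35.6%, 35.5%, 26.2%, 16.9%, 16.2% and 18.4% in the same 6 classes.

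**Figure D3:**
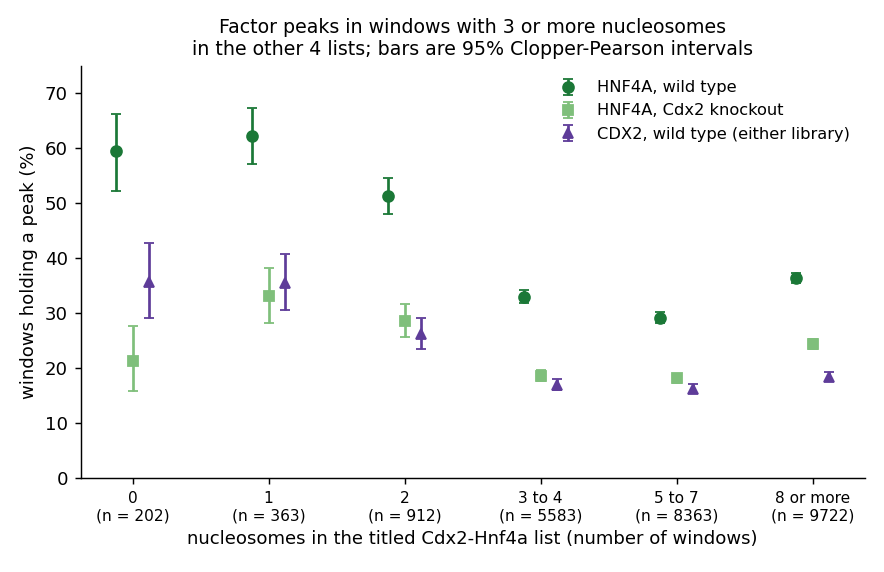
Share of windows (vertical axis, percent) that hold a factor peak, by the number of nucleosomes in the titled Cdx2-Hnf4a library (horizontal axis), for windows with 3 or more nucleosomes in the other 4 libraries; bars are exact 95% intervals. HNF4A of wild type stands at 59.4%, 62.3% and 51.3% for 0, 1 and 2 nucleosomes and between 29.2% and 36.4% above.

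Peaks were also counted in windows empty in a single other library. Over the 106 windows that were empty only in the titled Cdx2-Cdx1 library, Cdx2 knockout, Hnf4a knockout or wild type, HNF4A lay in 14.2% (8.14 to 22.3) and CDX2 in 5.66% (2.11 to 11.9). With 0 or 1 nucleosome in 1 of those lists, which gave 672 windows, the shares were 16.4% (13.7 to 19.4) and 9.82% (7.68 to 12.3). By library, HNF4A lay in 22.9% of 83 such windows for the titled Cdx2-Cdx1 library, 27.4% of 95 for Cdx2 knockout, 13.4% of 254 for Hnf4a knockout and 12.9% of 240 for wild type. The CDX2 shares were 12.05%, 20.0%, 7.87% and 7.08% in that order, so both shares were higher for the libraries without Cdx2. The same rule for the titled Cdx2-Hnf4a library gave 565 windows, with HNF4A in 61.2% and CDX2 in 35.6%.

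A different set of 202 windows was empty in all 3 lists without Cdx2 and had 3 or more nucleosomes in Hnf4a knockout and wild type. HNF4A of wild type lay in 59.4% of the windows empty only in the titled Cdx2-Hnf4a library, against 36.6% (30.0 to 43.7) of those, a difference of 22.8 points (13.1 to 31.9). For CDX2 of either library the shares were 35.6% and 46.0% (39.0 to 53.2), a difference of −10.4 points (−19.7 to −0.813). With library 2 alone they were 4.95% and 14.4% (9.83 to 20.0), a difference of −9.41 points (−15.4 to −3.68). HNF4A was called in Cdx2 knockout in 21.3% (15.9 to 27.6) of the windows empty only in the titled Cdx2-Hnf4a library, against 0.990% (0.120 to 3.53) of the windows empty in all 3 lists. In retained windows this share was 21.3% too. The first of these sets was chosen with 3 or more nucleosomes in Cdx2 knockout, and the set empty in all 3 lists with 0. Their contrast in that same genotype is therefore a description. The windows empty only in the titled Cdx2-Hnf4a library were more densely marked in wild type, with a mean of 6.65 against 4.28 nucleosomes, and the part of density in these differences was not tested.

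The strongest CDX2 site lay in the window on chromosome 4 at 117300001 to 117305000. CDX2 scored 182.6 there in Hnf4a knockout, against 652.6 and 353.1 in wild-type libraries 1 and 2. H3K4me2 nucleosomes numbered 0 in the titled Cdx2-Hnf4a library, 3 in the titled Cdx2-Cdx1 library, 4 in Cdx2 knockout, 6 in Hnf4a knockout and 6 in wild type. Their summed scores were 339.6, 532.4, 2879 and 1895 in the 4 marked libraries. The sums here were thus lower in both marked libraries without Cdx2 than in Hnf4a knockout or wild type. They were not scaled for depth.

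A second such window lay on chromosome 13 at 114560001 to 114565000, where CDX2 scored 79.85 in Hnf4a knockout and 321.9 and 149.6 in wild type. It had 5, 5, 3 and 4 nucleosomes in the titled Cdx2-Cdx1 library, Cdx2 knockout, Hnf4a knockout and wild type. The next, on chromosome 10 at 75620001 to 75625000, was another window with a titled Cdx2-Hnf4a nucleosome scoring under 52. It had CDX2 scores of 252.6 and 56.3 in wild type and counts of 6, 4, 5 and 5. In these windows the counts did not separate the libraries, but the summed scores did. They were 1348, 510.8, 1724 and 2440 in the window on chromosome 13 and 699.8, 326.8, 2222 and 1218 in that on chromosome 10. The windows starting at 88020001 on chromosome 17 and at 72770001 on chromosome 3 had a CDX2 peak of 189.8 in library 1 each. Their counts were 5, 3, 10 and 7, and 3, 3, 6 and 7.

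The strongest HNF4A site lay on chromosome 2 at 27540001 to 27545000, with an HNF4A score of 541.4 in Cdx2 knockout and 1063 in wild type. The nucleosome counts were 0 in the titled Cdx2-Hnf4a library, 3 in the titled Cdx2-Cdx1 library, 6 in Cdx2 knockout, 10 in Hnf4a knockout and 9 in wild type. On the same chromosome at 165120001 to 165125000, HNF4A scored 427.3 in Cdx2 knockout and 1051 in wild type, and the counts were 0, 3, 8, 10 and 9. No CDX2 peak lay in either window. In both, Cdx2 knockout stood between the titled Cdx2-Cdx1 library and wild type.

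The window on chromosome 3 at 101195001 to 101200000 held both factors. HNF4A scored 367.9 in Cdx2 knockout and 871.1 in wild type, CDX2 scored 89.55 and 84.75 in the wild-type libraries, and the counts were 0, 3, 3, 6 and 7. On chromosome 4 at 115495001 to 115500000, HNF4A scored 814.3 in wild type and was not called in Cdx2 knockout, and the counts were 0, 9, 5, 7 and 8. On chromosome 3 at 88060001 to 88065000, HNF4A scored 168.8 in Cdx2 knockout and 727.2 in wild type, with counts of 0, 3, 4, 4 and 5. An HNF4A peak was thus still called without Cdx2 in 4 of these 5 windows, each time with a lower highest score. The windows were picked by their wild-type score, and the scores were not scaled. The whole HNF4A list held 9676 peaks in Cdx2 knockout and 22376 in wild type.

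HNF4A peaks in the 202 windows were less often called again in Cdx2 knockout than those in retained windows. Of 174 wild-type HNF4A peaks there, 42 overlapped a peak of the knockout list by 1 bp or more, or 24.1% (17.98 to 31.2). In retained windows it was 42.0% (41.1 to 42.9) of 11081, a difference of −17.9 points (−23.7 to −10.9). The direction was the same at each level of peak score. The shares were 8.70% (2.42 to 20.8) of 46 peaks against 15.7% from 50 to under 75, 14.5% (7.18 to 25.04) of 69 against 36.4% from 75 to under 150, and 47.5% (34.3 to 60.9) of 59 against 77.4% from 150 upwards. In the lowest class the interval includes the share in retained windows. HNF4A in Cdx2 knockout occupied 21.3% of the 202 windows and 21.3% of retained windows, while HNF4A in wild type occupied 59.4% and 34.1%. HNF4A in each genotype had 1 library, so the share that would be called again between lists of 1 genotype is unknown.

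Of the 120 windows with HNF4A in wild type, 83 held no HNF4A peak in Cdx2 knockout, or 69.2% (60.1 to 77.3), against 48.03% (46.97 to 49.1) of the retained windows with HNF4A. These 83 windows still had a mean of 5.04 nucleosomes in Cdx2 knockout, against 6.78 in wild type. The 37 windows that kept an HNF4A peak had 5.97 and 7.46. Cdx2 knockout was below wild type in 65.1% of the 83 and 70.3% of the 37. The rule itself required 3 or more nucleosomes in Cdx2 knockout in all of them.

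For CDX2 peaks followed in Hnf4a knockout, a difference was not detectable. Of 89 wild-type CDX2 peaks in the 202 windows, 10 were called again, or 11.2% (5.52 to 19.7), against 14.1% (13.1 to 15.0) of 5411 in retained windows. The difference was −2.83 points (−7.94 to 5.45). The share in retained windows was too low for a fall as large in points as that of HNF4A. The factors can therefore not be set against each other here. Peaks of both wild-type libraries were pooled here without merging. A site called in both was entered by each of its peaks, which the intervals do not cover. With library 2 alone the order turned, at 30.0% of 10 peaks against 27.0%.

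Nucleosomes around the factor peaks were counted by their distance from the peak, again as a description of lists the rule used. Within 200 bp of the centres of the 174 HNF4A peaks, Cdx2 knockout had 194 nucleosomes and wild type 205, a scaled ratio of 0.904 (0.739 to 1.11). From 200 to 600 bp it had 260 against 350, or 0.710 (0.602 to 0.836), and from 600 bp to 1 kb 149 against 205, or 0.695 (0.559 to 0.862). The titled Cdx2-Cdx1 library had ratios of 0.802 (0.655 to 0.983), 0.624 (0.529 to 0.736) and 0.658 (0.531 to 0.815) in these 3 zones. Hnf4a knockout had 0.909 (0.742 to 1.11), 1.04 (0.898 to 1.21) and 1.07 (0.878 to 1.30).

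A CDX2 site called in both wild-type libraries was entered once, by its library 1 peak. At the 81 CDX2 sites of these windows the ratio in Cdx2 knockout was 0.915 (0.676 to 1.24) within 200 bp and 0.603 (0.466 to 0.779) from 200 to 600 bp. In the titled Cdx2-Cdx1 library it was 0.842 (0.623 to 1.14) and 0.577 (0.447 to 0.742). Hnf4a knockout had 0.981 in both zones, with 93 and 160 nucleosomes against 93 and 160 in wild type. The point estimates were lower beside the peak than at its centre for both factors and both libraries, while the intervals of these 2 zones overlapped. In retained windows the same order was seen at smaller size, with 0.959 (0.937 to 0.983) and 0.891 (0.875 to 0.907) around 11081 HNF4A peaks in Cdx2 knockout. Peaks that lie close together share nucleosomes, which the intervals do not cover.

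**Figure D4:**
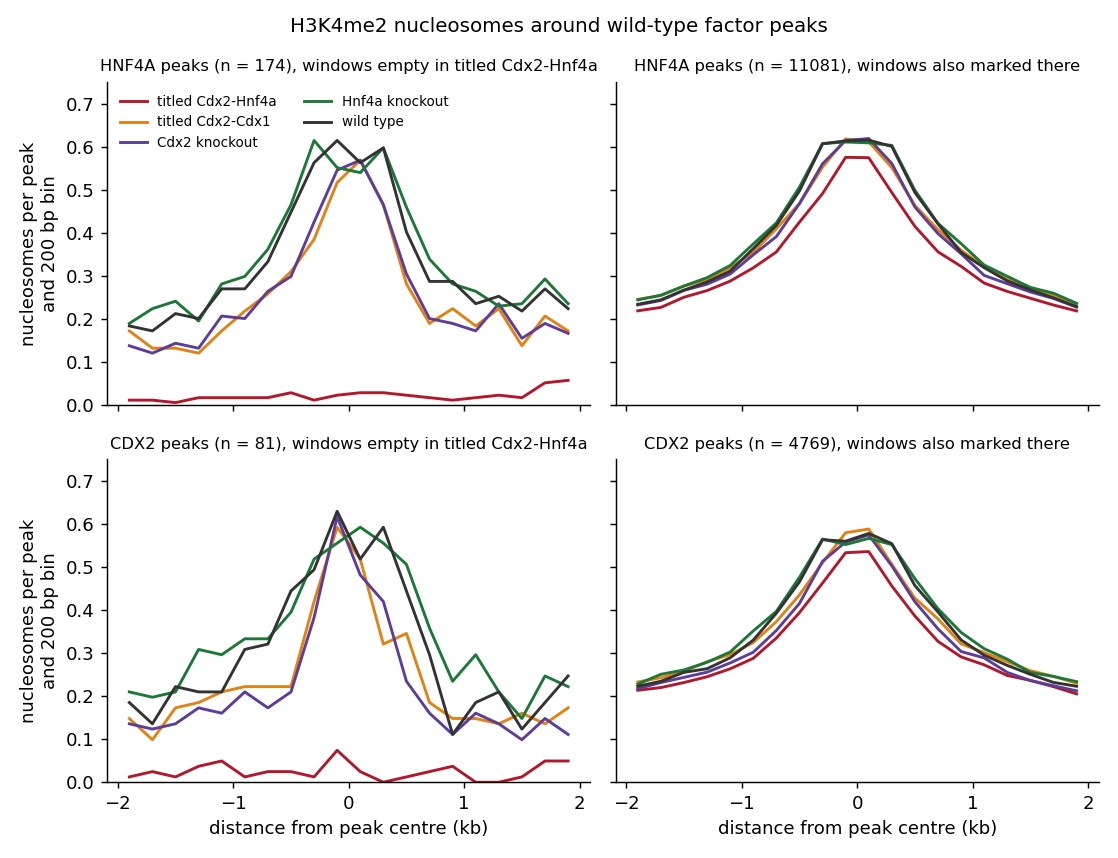
H3K4me2 nucleosomes per peak in 200 bp bins (vertical axis) by distance from the centre of wild-type HNF4A peaks (top) and CDX2 sites (bottom), in the 202 windows (left) and in retained windows (right), 1 line per library. In the 202 windows, Cdx2 knockout and the titled Cdx2-Cdx1 library come near wild type at the centre and lie below it on both sides, with 260 nucleosomes in Cdx2 knockout against 350 in wild type at 200 to 600 bp from HNF4A peaks.

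Fewer nucleosomes were also called just beyond the window. In the 5 kb windows before and after, the titled Cdx2-Hnf4a library had means of 2.50 and 2.26 nucleosomes, against 4.76 and 4.10 in wild type. Cdx2 knockout had 4.04 and 3.58, the titled Cdx2-Cdx1 library 3.97 and 3.48, and Hnf4a knockout 4.73 and 4.25. At 20 kb before and after, the titled Cdx2-Hnf4a library had 1.49 and 1.47 against 1.62 and 1.74 in wild type. Around retained windows the neighbouring means were 2.86 and 2.87 in the titled Cdx2-Hnf4a library and 2.66 and 2.65 in wild type. In wild type the 202 windows thus had more densely marked neighbours than retained windows did.

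The stretch without a nucleosome of the titled Cdx2-Hnf4a library had a median length of 24000 bp and reached 20 kb or more at 114 windows. It held a median of 10 wild-type nucleosomes, with a range of 3 to 46, and at 188 windows it held more than the window itself. The stretch includes the window, so it could not hold fewer. It was under 10 kb at 42 windows. Wild type, measured in the same way from the nearest nucleosomes outside the window, had a median of 13292 bp. Its stretch reached 20 kb or more at 74 windows and was under 10 kb at 74. Stretches of 20 kb or more numbered 78 in the titled Cdx2-Cdx1 library, 82 in Cdx2 knockout and 59 in Hnf4a knockout. Those under 10 kb numbered 74, 74 and 89 in the same order.

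**Figure D5:**
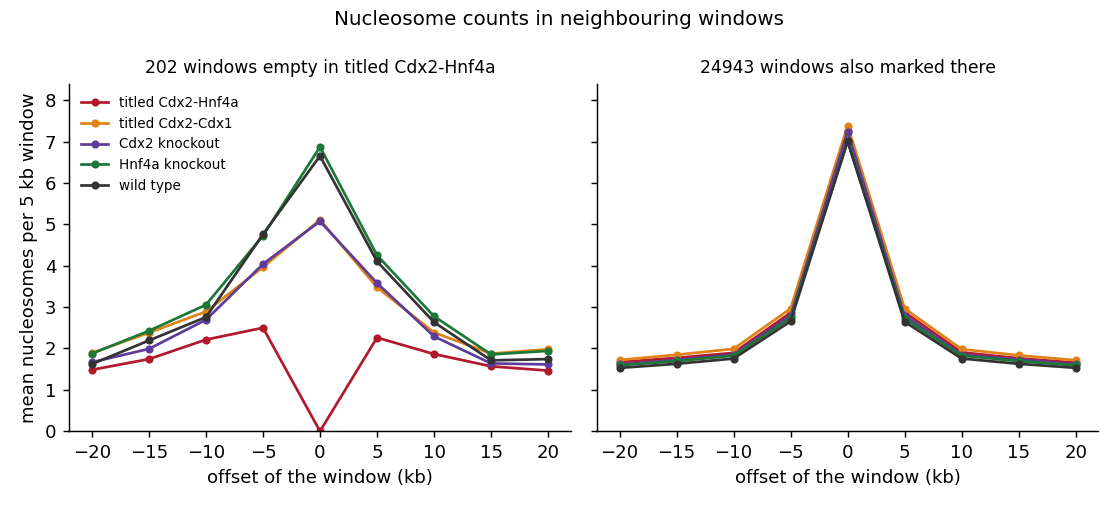
Mean number of H3K4me2 nucleosomes per 5 kb window (vertical axis) by distance in kb from the 202 windows (left) and from the 24943 retained windows (right), 1 line per library. Beside the 202 windows, the titled Cdx2-Hnf4a library has means of 2.50 and 2.26, the lowest of the 5, and wild type has 4.76 and 4.10.

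The windows were spread over the autosomes and chromosome X. Chromosome 17 had the most, with 17 of 1175 marked windows or 1.45% (0.845 to 2.31), and chromosome 16 the smallest share, with 2 of 864 or 0.231% (0.0280 to 0.834). Of the 202 windows, 32 had another within 50 kb.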

How the data were processed

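H3K4me2 was mapped in 5 libraries and CDX2 and HNF4A in 5 more. The input sample was not analysed here. The authors deposited called nucleosomes with a score, 10 times the −log10 of a p-value per the file headers, and factor peaks with a score of 50 or more whose meaning is not given in the sources used here. Peak names carry the word MACS, per the files. Build mm9 is given per the submitters' processing notes. Aligner, caller version and control: not given in the sources used here. Score lists hold no reads, so depth is unknown.

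Nucleosomes scoring 52 or more were used because the lowest deposited score differed between lists (1.7 in Hnf4a knockout, 50.1 to 51.3 in the others). Windows across the genome were compared by counts and shares with Clopper-Pearson intervals, differences of shares with Newcombe intervals, and count ratios scaled by list length with exact binomial intervals. No test between conditions was possible with 1 library a group. The rule was run on thinned copies of the wild-type list with planted empty windows. Such windows meet the rule by definition, so this checked the code and not differences between real libraries. The windows, classes and lists were chosen with earlier results of these data known. Windows named are the 10 densest, the 5 with the strongest peak of each factor, adjoining ones, and those at the edges of the rule. Planned gene distances, gene lists, motifs and sequences need an mm9 genome and were not used here. Python 3.11.15, pandas 2.3.3 and scipy 1.17.1 were used.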

Additional observations from a re-analysis of the deposited data

Results flagged for a closer look

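The titled Cdx2-Hnf4a list held nucleosomes under the score of 52 that the counts did not use. In the 202 windows there were 11 of them, 1 in each of 11 windows, with scores of 50.7 to 51.1. The whole list held 3309 nucleosomes under 52.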

How the results depend on the processing

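The number of windows, 202, stayed within 1.5 times under 7 of 10 alternatives and was 626 with 2 or more nucleosomes in the marked lists, 50 with 5 or more, and 314 without the titled Cdx2-Cdx1 list in the rule. Leaving a list out of the rule, and every alternative for the ratio of Cdx2 knockout to wild type, were chosen after seeing the data. The HNF4A share, 59.4%, was 67.2% with windows shifted by 2500 bp, 67.6% with 10 kb windows, 41.1% with peaks scoring 100 or more and 80.7% with peaks within 5 kb. It was above that of retained windows under all 13 alternatives. The CDX2 share, 35.6%, was 28.1% with 2 or more nucleosomes, 12.9% with peaks scoring 100 or more, 56.9% within 5 kb and 4.46% where both libraries had a peak. Leaving out a CDX2 library gave 4.95% to 35.1%. It was above that of retained windows under all 16, by 0.376 points at library 2 alone. The HNF4A share called again in Cdx2 knockout, 24.1%, was 33.3% for peaks scoring 100 or more, against 65.3% in retained windows. The CDX2 share called again in Hnf4a knockout, 11.2%, was 27.6% for peaks scoring 100 or more, and 8.86% to 30.0% without 1 library. At 30.0%, with library 2 alone, it lay above retained windows, and the cause was not tested. The ratio of Cdx2 knockout to wild type was 0.689 to 0.738 under 10 alternatives. Wild type was the empty list at 281 windows with the lists as deposited, where the Hnf4a knockout list reaches lower scores, and the titled Cdx2-Hnf4a list at 235. Under the other 7 settings run for all lists, the titled Cdx2-Hnf4a list had the most empty windows. Unknown depth limits every count. No replicate exists for any H3K4me2 list.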
